A study of Mus musculus with 2 samples.

Results

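The levels of 6 miRNAs that lie inside protein-coding genes were examined in Müller glia (MG), glial cells that span the depth of the retina. They were mmu-miR-103, mmu-miR-107, mmu-miR-140, mmu-miR-191, mmu-miR-425 and mmu-miR-335-5p, 6 of the 566 mouse miRNAs on the NanoString panel. They were chosen by their host genes, which are known as broadly expressed, with earlier results of these libraries known. Their fall in Dicer-CKO was therefore in view when they were listed, and their values are a description without a test. The host mRNAs are not on the panel, so their expression in these cells was not measured.

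The comparison was between 2 libraries, each 1 pool of adult mouse MG sorted by FACS for the reporter tdTomato. Wild-type MG had the genotype Rlbp1-CreER:tdTomato (40 retinas) and Dicer-CKO MG the genotype Rlbp1-CreER:tdTomato:Dicerf/f (26 retinas). Mice of both groups received tamoxifen at 75 mg/kg from postnatal day 11 to 14. The Rlbp1 promoter drives the inducible Cre in MG, and the reporter marks cells in which Cre acted, which does not show that both Dicer alleles were lost in each of them. With 1 library per group there is no replicate and no p-value. The intervals cover counting error, to which those of the summed count, of the ratios of remaining shares and where stated add the error of the background. None covers the variation between pools of animals. In such pooled cells, fewer cells that hold a miRNA and less miRNA per cell cannot be told apart.

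A miRNA of this kind is transcribed together with its host gene. Its hairpin is cut from the transcript by Drosha, and Dicer then cuts the hairpin to the mature miRNA, which is the form that the assay tags and counts. The seed, bases 2 to 8 from the 5′ end, pairs with target mRNAs. miR-103 and miR-107 lie in the Pank genes, which encode pantothenate kinases, the first enzymes of coenzyme A synthesis. In human cells both are known to repress the mRNA of Dicer itself. miR-140, best known from cartilage, lies in Wwp2, an E3 ubiquitin ligase gene. miR-191 and miR-425 share the host Dalrd3. miR-335-5p comes from Mest, an imprinted gene that is expressed from the paternal allele.

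The mature sequences are shown because they tell which members can act on the same targets and which can be confused by a probe. They were taken from RefSeq (GRCm38.p6), with the seed in capitals, for the 5 members with an entry, and the panel's names without an arm were read as the arm given here:
mmu-miR-103-3p: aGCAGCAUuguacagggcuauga
mmu-miR-107-3p: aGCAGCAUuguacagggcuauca
mmu-miR-191-5p: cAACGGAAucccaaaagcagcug
mmu-miR-425-5p: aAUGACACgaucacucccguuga
mmu-miR-335-5p: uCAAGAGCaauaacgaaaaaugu

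miR-103 and miR-107 had the same seed and differed at 1 of 23 bases, G22C counted from the 5′ end of miR-103. No other mature mouse miRNA among the 1679 names in the table had this seed. How far the probe of one also reads the other was not tested. The seeds of miR-191 and miR-335-5p were shared with no other name, and that of miR-425 with miR-489-3p alone.

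In GRCm38.p6 each hairpin lay on the strand of its host and within its span. The table used gives no exons, so that the hairpins are intronic rests on what is known of them. miR-103 has 2 copies, Mir103-1 at chr11:35782396-35782481 in Pank3 and Mir103-2 at chr2:131288052-131288137 in Pank2. The panel reads their mature product together. Mir107 lay at chr19:34820687-34820773 in Pank1, and Mir140 at chr8:107551244-107551313 in Wwp2. Mir191 (chr9:108568319-108568392) and Mir425 (chr9:108568777-108568861) lay 384 bases apart in Dalrd3. Mir335 lay at chr6:30741299-30741396 in Mest.

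The wild-type library held 695390 barcodes for mouse miRNAs and the Dicer-CKO library 52644. Detection required a raw count over the negative controls' mean plus 2 SD (8 controls), which was 71.7 for wild-type and 53.2 for Dicer-CKO. After subtraction of background and scaling to positive controls and 4 housekeeping mRNAs, these limits became normalized counts of 23.6 and 90.0. The Dicer-CKO limit was higher because the housekeeping mRNAs were counted less often there (Actb 1939 against 7024). Normalized counts below are on this scale, and a member at background in Dicer-CKO has only an upper bound, set by that limit. Calls of lower or higher needed a difference of 2-fold or more and an exact 95% binomial interval that left out equality.

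All 6 members were detected in wild-type MG, and 1 of them, miR-335-5p, was detected in Dicer-CKO MG. Of the 6, 4 were called lower in Dicer-CKO (miR-335-5p, miR-191, miR-140 and miR-103), none was called higher, and 2 were not called (miR-425 and miR-107). Of the 174 mouse miRNAs detected in either library, 29.9% were called lower and 12.1% higher. Among the 67 with a wild-type level of at least 2 times the Dicer-CKO limit (180.1), where a 2-fold fall can be seen, 77.6% were called lower. All 4 members above that level were called lower, and a fall was thus the usual result there. The median of these 4, with bounds at their limit, was 24.9% of wild-type, against 31.6% for the other 63. Of these 4, miR-335-5p alone was measured in both libraries, so the 24.9% rests on upper bounds. With the upper 95% limits of their own Dicer-CKO counts, the bounds of miR-191, miR-140 and miR-103 were 26.6%, 37.1% and 47.3%. A larger fall of the members than of the other 63 is thus not shown.

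**Figure D1:**
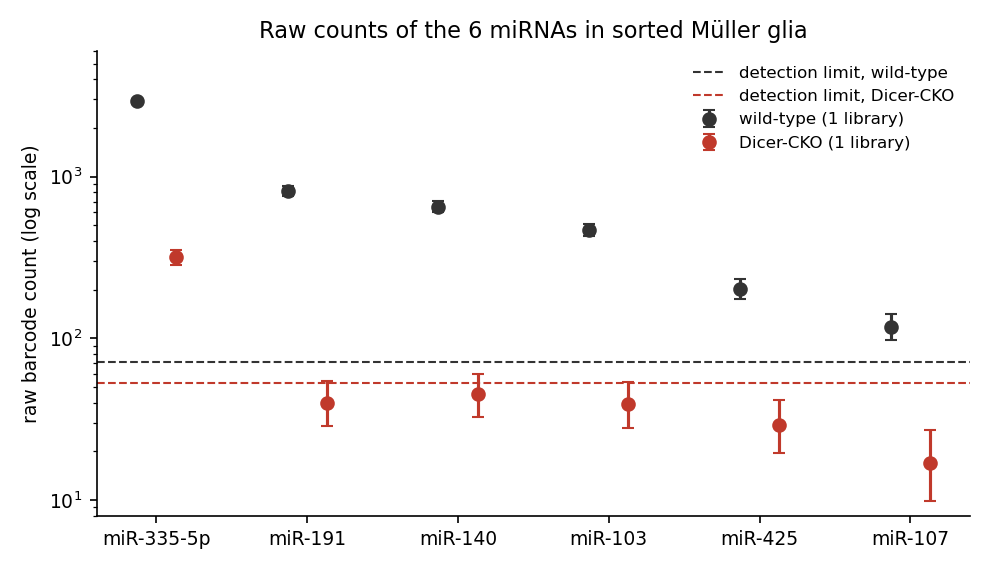
Raw barcode count (log axis) of the 6 miRNAs in the 1 wild-type library (dark) and the 1 Dicer-CKO library (red), with exact 95% Poisson intervals and each library's detection limit (dashed). All 6 lie above the limit in wild-type, and in Dicer-CKO miR-335-5p alone does, at 317 against a limit of 53.2.

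miR-335-5p, from the Mest transcript, was the most abundant of the 6. Its raw count was 2921 in wild-type and 317 in Dicer-CKO, well above the limit in both. The normalized count was 2063 in wild-type (rank 22 of the mouse miRNAs) and 813 in Dicer-CKO (rank 25). It was 2.54-fold lower, with 39.4% of the wild-type level remaining (35.0% to 44.2%, and 33.4% to 46.4% when the error of the background is added). Its share of all mouse miRNA barcodes was 0.420% in wild-type and 0.602% in Dicer-CKO, so as a share of these barcodes it was not reduced. On the scale of the 100 highest miRNAs it was at 86.4% of its wild-type level (76.7% to 97.0%), which was not called. Of the 74 miRNAs measured in both libraries, 32 kept a smaller part of their wild-type level and 41 a larger one. Those 74 hold miRNAs of low wild-type level only where these stayed above the Dicer-CKO limit. Among the 67 with a wild-type level of at least 180.1, 41 had a smaller share or bound than miR-335-5p. The other arm of the hairpin, miR-335-3p, was close to background, with raw counts of 78 in wild-type and 18 in Dicer-CKO, so no direction can be given for it.

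miR-191 from Dalrd3, a miRNA often used as a reference in other tissues because its level varies little, was counted 817 times in the wild-type library and 40 times in that of Dicer-CKO MG. The second value lay below the limit. Its normalized wild-type count was 557 (rank 43), and at most 16.2% of it remained (counting interval of this bound 12.0% to 21.3%), at least 6.19-fold lower. With the upper 95% limit of its own Dicer-CKO count in place of the detection limit, the bound was 26.6%. The bound of miR-191 was the lowest among the 6 members. Of the 74 miRNAs measured in both libraries, all of which had to be detected in Dicer-CKO, 69 kept a larger share than the bound of 16.2%. That bound follows from the wild-type count and the detection limit. The place does not hold for the bound of 26.6%, as let-7e, for one, kept 26.0%.

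miR-425, from the same host transcript, had raw counts of 202 in wild-type and 29 in Dicer-CKO. Its normalized wild-type count was 117 (rank 85), and at most 77.0% of it could remain (55.8% to 105%), so it was not called. With the upper 95% limit of its own count the bound was 99.6%. The partners from Dalrd3 thus differed in wild-type level, 557 against 117 on the normalized scale, though 2 probes need not count with equal efficiency. Whether they fell alike was not detectable at this depth, since miR-425 in wild-type was near the lowest level that the Dicer-CKO library could show.

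miR-140 from Wwp2 had raw counts of 651 in wild-type and 45 in Dicer-CKO. From a normalized wild-type count of 438 (rank 47), at most 20.5% remained (15.2% to 27.2%), at least 4.87-fold lower. With the upper 95% limit of its own count the bound was 37.1%.

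miR-103, the sum of the Pank2 and Pank3 copies, had raw counts of 468 in wild-type and 39 in Dicer-CKO. From a normalized wild-type count of 307 (rank 60), at most 29.3% remained (21.6% to 39.0%), at least 3.41-fold lower. With the upper 95% limit of its own count the bound was 47.3%, close to the 2-fold rule. The call was lost with detection above 100 counts, where at most 71.0% remained, and on the scale of the 100 highest miRNAs, where at most 64.2% did. miR-107, its near copy from Pank1, had raw counts of 118 and 17 and a normalized wild-type count of 56.8 (rank 116). That is below the Dicer-CKO limit of 90.0, so no direction can be given for miR-107.

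The raw Dicer-CKO counts of the 5 members at background ran from 17 to 45. All 5 were below the highest negative control of that library, 59, and 4 were above the mean of the negative controls, 20.4. Summed, a choice made after the values were seen, they had 170 barcodes where the negative controls would give 102. The net count was 68.1, with a 95% interval of -27.2 to 163 that includes 0. From a net 2063 in wild-type, this was 12.6% of the normalized level (-5.04% to 30.3%). The interval, which leaves out the error of the wild-type sum, lay below that of miR-335-5p (33.4% to 46.4%). The 5 were grouped because each lay below the Dicer-CKO limit, which favours this order, so no conclusion is drawn from it.

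**Figure D2:**
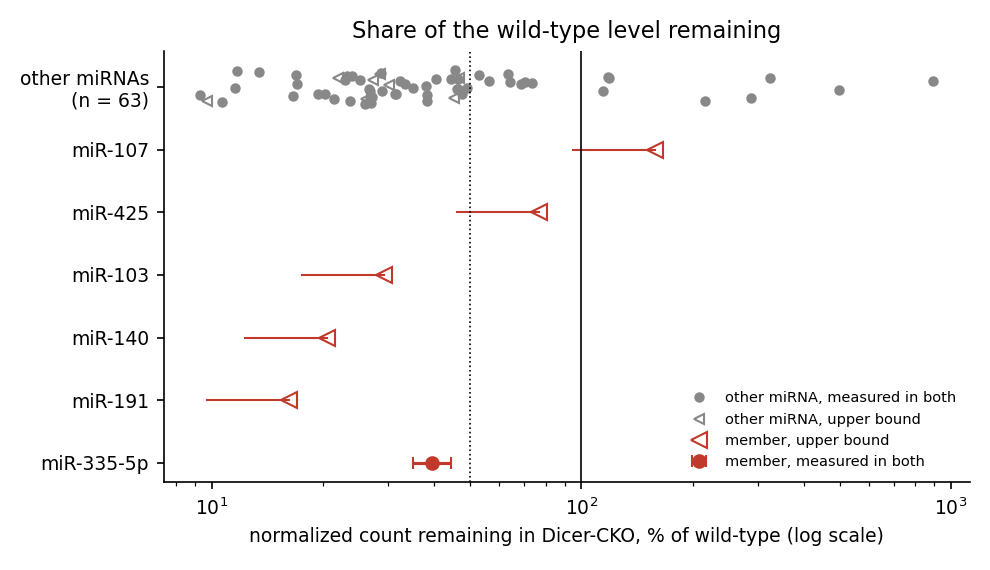
Percent of the wild-type normalized count that remained in Dicer-CKO (log axis) for the 6 miRNAs (red) and for the 63 other miRNAs with a wild-type level of at least 180.1 (grey). Filled circles were measured in both libraries and open triangles are upper bounds; the vertical lines mark equality and the 2-fold rule. miR-335-5p lies at 39.4%, to the right of the bounds of miR-191 (16.2%), miR-140 (20.5%) and miR-103 (29.3%).

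Members can be set against each other without the housekeeping mRNAs, since the scale cancels in a ratio of remaining shares. miR-335-5p was compared with each of the 5 others. It kept at least 2.44 times the share of miR-191 (2.03 to 2.93), at least 1.92 times that of miR-140 (1.58 to 2.32) and at least 1.34 times that of miR-103 (1.09 to 1.65). With the upper 95% limits of the other members' own counts these ratios were at least 1.48, 1.06 and 0.832. The bound of miR-191 from its own count, 26.6%, lay below the interval of miR-335-5p. That of miR-140, 37.1%, lay within it, and that of miR-103, 47.3%, above its measured share, so neither order was kept. With 100 counts as the detection limit the ratios were at least 1.01 for miR-191, 0.791 for miR-140 and 0.555 for miR-103, and no order was kept. For miR-107 and miR-425 no order could be given. Among these 5 themselves, all at background in Dicer-CKO, no order of the remaining shares could be given either.

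In wild-type the members were spread over the order of miRNA levels. miR-335-5p stood below let-7e (raw count 3320, intervals not overlapping) and could not be told from miR-23a (2919). miR-191 could not be told from miR-1965 (825) and stood above miR-210 (695, intervals not overlapping). miR-140 did not differ beyond counting error from its neighbours miR-301a (658) and miR-99b (623), nor miR-103 from miR-15a (475) and miR-1900 (455). miR-425 likewise stood among miR-136 (203) and miR-362-3p (196), and miR-107 among miR-495 (119) and miR-19b (117). These neighbours differed in what remained. Next to miR-191, miR-1965 kept 16.9% and miR-210 56.3%, and next to miR-425, miR-136 was at 139% of its wild-type level.

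Over the 2 libraries together, the miRNAs nearest in pattern, by Euclidean distance on log2 normalized counts with values below a limit set to it, were miR-23a (0.21) and let-7e (0.45) for miR-335-5p and miR-1965 (0.08) and miR-301a (0.38) for miR-191. For miR-140 they were miR-532-5p (0.09) and miR-301a (0.20), and for miR-103 miR-1968 and miR-1900 (both 0.04). For miR-425 they were miR-98 and miR-26a, and for miR-107 miR-423-3p and miR-495. Except for miR-335-5p, this likeness is mostly one of wild-type level, since the other 5 members were at background in Dicer-CKO. miR-23a kept 45.5% and let-7e 26.0%.

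**Figure D3:**
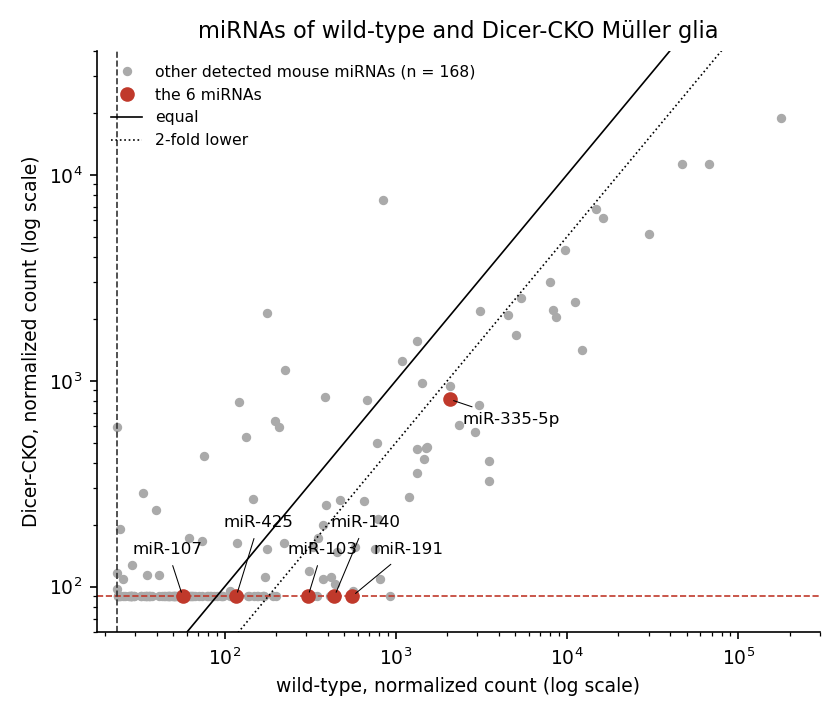
Normalized count in Dicer-CKO against wild-type (both axes log) of the 174 mouse miRNAs detected in either library, 1 library each, with the 6 miRNAs in red and values below a detection limit drawn at that limit (dashed). miR-335-5p lies below the 2-fold line, and the other 5 lie on the Dicer-CKO limit of 90.0, 3 of them to the right of the 2-fold line.

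A list of 26 other miRNAs inside broadly expressed genes was read in the same way. Of these, 17 were detected in wild-type and 8 in Dicer-CKO; 5 were called lower, 2 higher and 10 were not called. All 5 that fell were measured in both libraries. The hosts named here are those of the list, from background knowledge. miR-30c, from Nfyc and 1 further copy, had raw counts of 12121 and 766 and kept 23.6%. miR-25 from Mcm7, a helicase subunit of DNA replication, had 2080 and 173 and kept 28.6%. miR-15b from Smc4 (847 and 77), miR-151-5p from Ptk2 (1131 and 98) and miR-152 from Copz2 (563 and 60) kept 26.8%, 27.2% and 28.9%. These 5 shares lay below the 39.4% of miR-335-5p. With the error of the background added, the interval of miR-30c (21.7% to 25.8%) ended below that of miR-335-5p (33.4% to 46.4%), and those of the other 4 overlapped it.

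The list also held miRNAs that were higher. miR-26b, from the phosphatase gene Ctdsp1, had raw counts of 579 and 326 and was 2.16-fold higher in Dicer-CKO. miR-101b from Rcl1 (96 and 62) was 2.78-fold higher, near the limit in both libraries. An intronic origin in a broadly expressed gene was thus found on both sides. Of the 67 miRNAs with a wild-type level of at least 180.1, 52 could be matched by name to hairpins (miR-151-5p could not). Of the 21 with all copies inside a protein-coding gene on the same strand, 18 were called lower (median remaining 28.6%), and of the 26 with no copy in one, 21 (median 32.3%). For 3 more, miR-15b, miR-16 and miR-148a, a copy lay within a gene whose strand the tables do not give, and all 3 were called lower. Of 19 with at least 1 copy inside a gene that were no members, 15 were called lower (median 28.6%).

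The seed of miR-103 and miR-107, moved by 1 base, is that of the miR-15 family, which is known to target cell cycle genes. Bases 1 to 7 of miR-103 equal bases 2 to 8 of its members, of which the 3 that were called lower are shown with their seed in capitals (RefSeq, GRCm38.p6):
mmu-miR-15a-5p: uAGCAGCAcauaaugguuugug
mmu-miR-15b-5p: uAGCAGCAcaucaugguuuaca
mmu-miR-16-5p: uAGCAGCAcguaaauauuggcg

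Of the 6 relatives on the panel, 5 were detected in wild-type and 3 were called lower, with 38.3% of miR-15a, 26.8% of miR-15b and 46.2% of miR-16 remaining. miR-16 was the most abundant of them, with a normalized wild-type count of 4500 against 307 for miR-103. miR-195 and miR-322 had only bounds and were not called, and miR-497 was detected in neither library.

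Markers of MG fell, as 4 of the members did, while the markers of other cells that were measured in both libraries rose. The 5 MG markers (let-7c, miR-9, miR-181a, miR-204 and miR-125b-5p) were all called lower, with 10.7% to 38.1% remaining and normalized counts that summed to 338246 (wild-type) and 52698 (Dicer-CKO). These markers also held ranks 1 to 5 of the mouse miRNAs in the same wild-type library. A fall of MG markers and a fall of the highest miRNAs thus cannot be told apart here. Of 21 markers of other cells, 11 were detected in wild-type, and all 10 that were measured in both libraries were higher, by 2.27-fold to 12.1-fold. Of these, miR-132, miR-150, miR-146a and miR-142-3p had wild-type levels of 24.6 to 76.1, below the Dicer-CKO limit of 90.0. They could be measured in both libraries only if higher. Of the 21, 3 had a wild-type level of at least 180.1 (miR-124, miR-183 and miR-129-3p), and all were called higher. The summed normalized count of the 21 was 1998 in wild-type and 13858 in Dicer-CKO, with neuronal miR-124 rising from 839 to 7503. The red blood cell markers miR-451, miR-144 and miR-486 were detected in neither library. The part of this shift in the values of the 6 miRNAs, miR-335-5p included, was not tested.

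The size of each fall, and for some the direction, depended on the scale. On the positive controls alone, which do not correct for the amount of RNA, 7.26% of miR-335-5p and at most 2.98% of miR-191, 3.78% of miR-140, 5.40% of miR-103, 14.2% of miR-425 and 29.2% of miR-107 remained, and all 6 were called lower. Relative to the sum of detected miRNAs, miR-335-5p was at 165% of its wild-type level and no member was called. On that scale the bounds at the detection limit were 67.5% for miR-191 (50.1% to 89.2%) and 85.8% for miR-140 (63.6% to 114%). The interval of this bound left out equality for miR-191 and not for miR-140. The bound from the own count of miR-191, 26.6% against 16.2% on the main scale, was not computed on the sum scale. A fall of miR-191 relative to the sum of detected miRNAs is thus not shown. On the scale of the 100 highest miRNAs miR-191 was called lower, with a bound at the detection limit of 35.4% (26.3% to 46.8%). The bound from its own count was not computed on that scale either. On the deposited normalized counts miR-335-5p was 1817 in wild-type and 715 in Dicer-CKO, and miR-191 was 490 and 47.

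**Figure D4:**
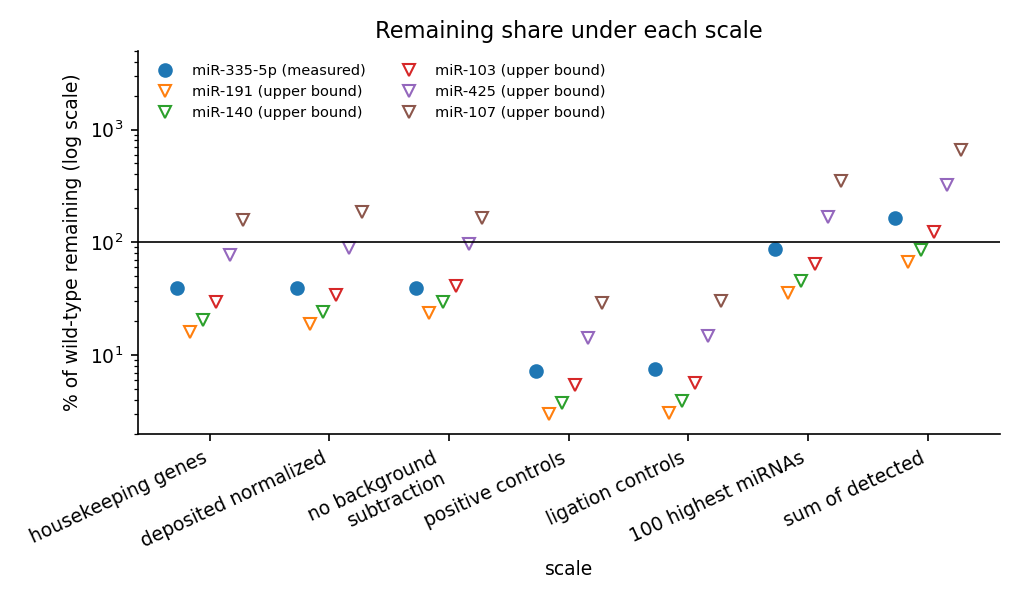
Percent of the wild-type level remaining in Dicer-CKO (log axis) for the 6 miRNAs under 7 scales, with the filled circle measured and open triangles upper bounds; the line marks equality. miR-335-5p runs from 7.26% on the positive controls to 165% on the sum of detected miRNAs. The bound of miR-191 at the detection limit stays below the line and below miR-335-5p on each of these scales.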

How the data were processed

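For both libraries the authors deposited the raw barcode count of each probe. They also deposited normalized counts from nSolver 2.6, a score rounded to whole numbers. Values here start from the raw counts. Background, taken as the mean over 8 negative controls, was subtracted in each library, and counts were scaled by the geometric means of the 6 positive controls and of 4 housekeeping mRNAs (Actb, Gapdh, Rpl19 and B2m), after the study's methods. The libraries held 769736 (wild-type) and 139812 (Dicer-CKO) barcodes over 626 probes. The ratio of raw counts was given an exact 95% binomial interval, which was carried to the normalized scale. A label gives 26 retinas for wild-type where its description gives 40, which was used.

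The members and lists were chosen with earlier results of these data known. The text names the members, their other arms, their neighbours in level and pattern, 26 other intronic miRNAs, 6 seed relatives and cell type markers. Alternatives varied the background, the scale, the detection limit and the size rule. The bound from a member's own count and the ratios to a bound were added after the data were seen. The calls were tested on simulated data, scored only for miRNAs with high wild-type counts, which left out the levels of miR-103, miR-425 and miR-107. Python 3.11.15 and SciPy 1.17.1 were used.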

Additional observations from a re-analysis of the deposited data

How the results depend on the processing

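With 1 library per group no value has a replicate, and depth limits 5 of the 6 members to bounds. Of the 6 members, 4 were called lower; this was 0 with the sum of detected miRNAs as scale, 2 with the 100 highest miRNAs (miR-191 and miR-140) and 2 with a 4-fold rule (the same pair). It was 3 with detection above 100 counts, where miR-103 was not called. Over all 19 alternatives this number was between 0 and 6, and 16 of them kept it within 1.5 times. The median log2 ratio of the members, -1.54, became -3.86 with the mean plus 2 SD or the highest negative control as background, where the bound shrinks to the floor of 3 counts by construction. It was -3.98 on the positive controls, -3.93 on the ligation controls, -0.41 on the 100 highest miRNAs and -0.73 with detection above 100 counts, and it turned to 0.52 on the sum of detected miRNAs. There the log2 ratio of miR-335-5p was 0.72, and the bound of miR-103 was 0.29, which gives no direction. The share of detected miRNAs called lower, 29.9%, was 64.9% and 66.7% under the higher backgrounds, 78.7% and 78.2% on the positive and ligation controls, 2.87% and 8.62% on the sum and the 100 highest miRNAs, and 10.9% with a 4-fold rule. Without background subtraction miR-335-5p kept at least 0.954 times the share of miR-103, and with detection above 100 counts at least 0.555 times that of miR-103 and 0.791 times that of miR-140, which gives no order. No paired analysis was possible because each group is 1 library.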
